A study of Rattus norvegicus with 2 samples.

Results

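The Zfp genes of the rat hypothalamus are described here before and at puberty. They were taken by name, as every gene whose symbol is Zfp followed by a digit and whose transcripts had a deposited mRNA level. The rule gave 282 genes with 327 transcripts, out of 22777 genes with 26324 transcripts in all. The rule used no measured value. The hypothalami came from female Sprague Dawley rats at 2 stages, prepubertal at postnatal day 25 and pubertal at first estrus on postnatal day 35. Both groups were decapitated under deep pentobarbital anesthesia, and no other treatment is named for either group. The study took 3 rats per stage, but the table holds 1 column per stage and the sources used here do not state how the rats were combined. Each stage was therefore 1 library, the spread between animals is unknown, and no difference between the stages was tested.

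Zfp is the symbol for zinc finger protein. In these proteins short loops held by a zinc ion bind DNA, RNA or other proteins. Many of them carry a KRAB domain, which recruits Trim28 and the enzymes that close chromatin, and the genes of that class often lie side by side in clusters that grew by duplication. Zinc finger repressors have been proposed to hold back puberty in the hypothalamus. The name alone does not say whether a gene represses transcription, and several Zfp genes act on RNA or on proteins instead.

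Levels are given as FPKM, fragments scaled for transcript length and sequencing depth, which is per length and so can be compared between genes. The Zfp genes were widely but moderately expressed. In the prepubertal library 254 of 282 Zfp genes (90.1%) had at least 1 FPKM, against 60.6% of all genes, and in the pubertal library 252 (89.4%), against 60.4%. At 10 FPKM or more the shares were 31.9% and 33.3% of the Zfp genes, against 36.3% and 35.8% of all genes. The median level of a Zfp gene was 6.62 FPKM before puberty and 6.35 FPKM at puberty, and the medians of all genes were 3.71 and 3.57 FPKM. Together the Zfp genes summed to 2807 FPKM before puberty and 2945 FPKM at puberty, of 772759 and 805045 FPKM over all genes.

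Zfp637 had the highest mean level, with 64.9 FPKM before puberty and 76.1 FPKM at puberty, and ranked 1681 among all genes. Zfp483 followed with 63.4 and 69.3 FPKM. Zfp91, a ubiquitin ligase, had 61.3 and 64.6 FPKM. Next came genes that act on RNA or in cell division rather than as classical repressors. Zfp207, which helps to assemble the mitotic spindle, had 59.5 and 57.2 FPKM. Zfp106, an RNA-binding protein needed by motor neurons, had 48.3 and 46.7 FPKM, and Zfp638, a nuclear protein that binds nucleic acids, had 45.3 and 49.3 FPKM. The remaining genes of the 10 with the highest mean were Zfp717, Zfp597, Zfp365 and Zfp612, between 37.6 and 44.2 FPKM before puberty. At the other end 8 Zfp genes were listed at 0 in both libraries, namely Zfp352, Zfp353, Zfp36l3, Zfp558, Zfp683, Zfp706, Zfp780b and 1 of the 3 genes called Zfp951. For Zfp706, Zfp780b and that Zfp951 gene the listed transcript is 165, 159 and 192 nt long, shorter than the edge taken off each length when fragments were derived, so their 0 cannot be read as a level. A further gene, Zfp494, was listed at 0.0463 FPKM before puberty, which was 1 fragment, and at 0 at puberty.

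**Figure D1:**
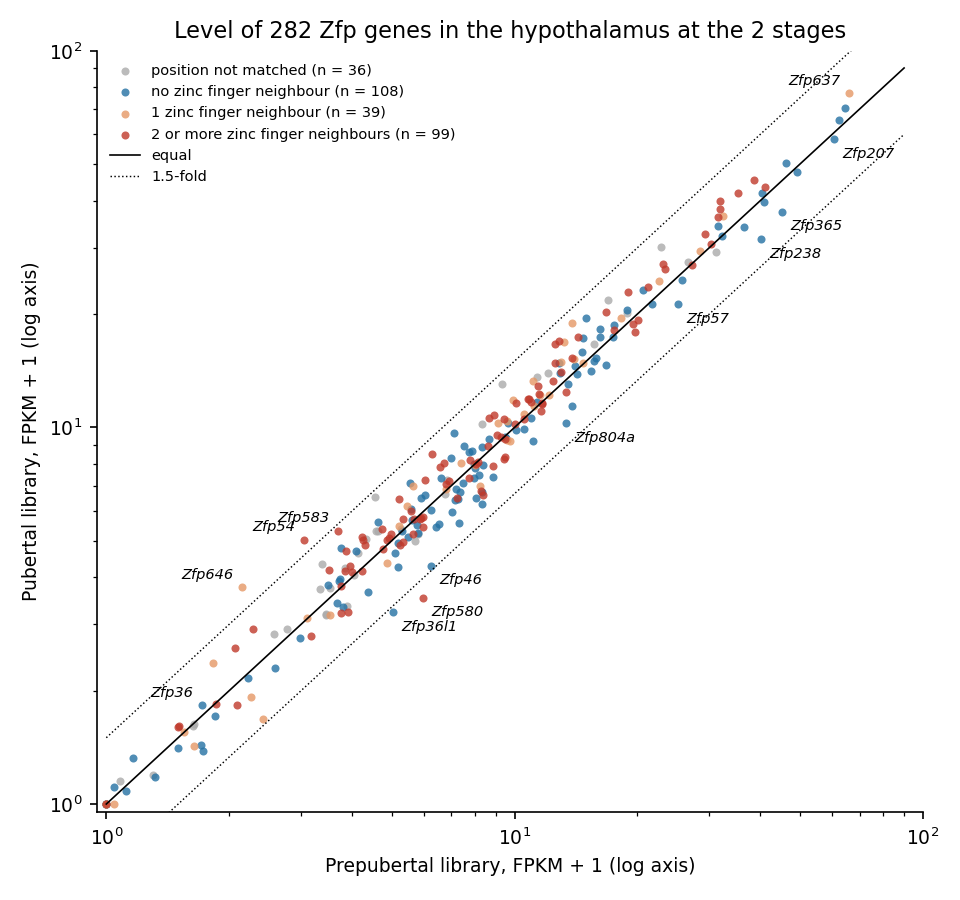
Each point is 1 of the 282 Zfp genes, with FPKM + 1 in the prepubertal library on the x axis and FPKM + 1 in the pubertal library on the y axis, both log axes. Colour gives the number of its neighbours named as zinc finger genes, the solid line marks equal levels and the dotted lines a 1.5-fold difference. Most points lie close to the line of equality, and Zfp646 and Zfp54 lie above the dotted lines and Zfp580 and Zfp36l1 below them.

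The promoters of the Zfp genes were set beside those of all genes because a class of genes with shared control could hold a shared site. Promoter sequences were taken from RefSeq (assembly GRCr8), from 250 bases before to 50 bases after each listed start. Of the 282 genes, 246 matched a RefSeq gene by name and 205 of these had a promoter sequence. Among 8 motifs searched on both strands was CTACAANTC, a stretch of the longer site bound by the activator Zfp143. This form was chosen after several were looked at. It was found near a start of 13 of 205 Zfp genes (6.34%) and of 322 of 14448 genes (2.23%). The ETS site CCGGAAG was in 21.5% of the Zfp genes and 13.2% of all genes, and the NRF1 site GCATGCGC in 6.83% and 3.9%. The other motifs were found as follows. The GC box GGGCGG was in 47.3% and 51.4%, the CCAAT box in 42.4% and 38.7%, and the cAMP response element TGACGTCA in 1.46% and 2.61%. The E-box CACGTG was in 8.29% and 8.35%, and the TATA box TATAAA in 10.7% and 11.6%. None of these letter strings contains another. The median GC content was 58.3% in both sets, and the median ratio of observed to expected CpG was 0.706 for the Zfp genes and 0.668 for all genes.

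For 11 of the 13 genes this stretch of the Zfp143 site lay before the start. The 7 windows here show it in genes of different levels, with up to 21 bases on each side, 5′ to 3′ on the strand of the gene. Capitals mark the stretch, or its reverse complement where the stretch is on the opposite strand.

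Zfp180, chr1:88780290-88780340, + strand: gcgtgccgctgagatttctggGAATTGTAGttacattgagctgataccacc

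Zfp235, chr1:88826859-88826909, + strand: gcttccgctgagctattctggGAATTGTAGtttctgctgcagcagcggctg

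Zfp110, chr1:82517987-82518037, + strand: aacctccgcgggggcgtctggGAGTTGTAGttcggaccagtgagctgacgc

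Zfp277, chr6:63240005-63240055, - strand: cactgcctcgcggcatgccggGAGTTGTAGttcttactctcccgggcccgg

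Zfp606, chr1:82054127-82054177, + strand: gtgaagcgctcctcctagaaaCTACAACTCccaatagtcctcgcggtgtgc

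Zfp451, chr9:43536658-43536708, - strand: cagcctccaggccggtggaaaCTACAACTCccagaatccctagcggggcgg

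Zfp692, chr10:42988879-42988929, + strand: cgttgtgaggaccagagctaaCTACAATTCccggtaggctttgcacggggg

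Zfp180 and Zfp235 belong to 1 row of neighbouring Zfp genes on chromosome 1. Both have the stretch on the opposite strand, beginning 23 and 22 bases before the start. A match of letters is a description and not a shown binding site. Among the 13 Zfp genes with the stretch, 7 were higher and 6 lower at puberty. Their median log2 ratio was 0.08 (quartiles -0.10 and 0.23), against 0.01 for the 192 Zfp genes with a promoter and no such stretch. Zfp692 went from 12.2 to 15.9 FPKM, Zfp110 from 13.3 to 16.4 FPKM and Zfp277 from 13.7 to 16.3 FPKM. Zfp180 had 26.2 and 25.9 FPKM and Zfp235 4.25 and 3.87 FPKM, so genes with the same letters lay on both sides of equality. Zfp143 itself had 2.80 FPKM before puberty and 2.33 FPKM at puberty, a ratio of 0.83 whose counting interval (0.65 to 1.08) includes 1.

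**Figure D2:**
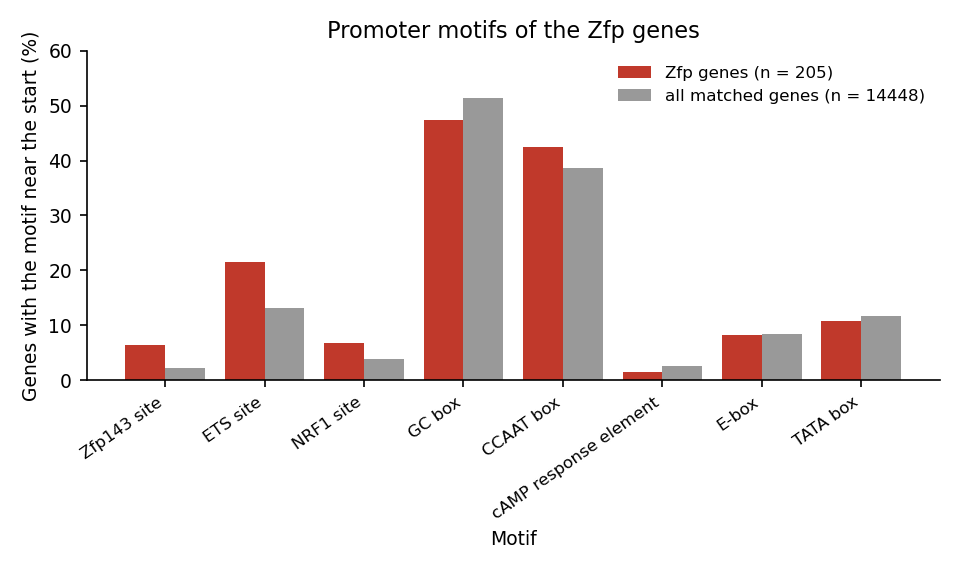
Bars give the percentage of genes with each motif between 250 bases before and 50 bases after a RefSeq start, on either strand, for 205 Zfp genes (red) and 14448 matched genes (grey). The Zfp143 site, here the stretch CTACAANTC chosen after several forms were looked at, stood at 6.34% against 2.23%. The ETS site stood at 21.5% against 13.2%, while the E-box was at 8.29% and 8.35%.

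The central comparison asks whether the Zfp genes as a class were lower at puberty. They were not lower as a class. The log2 ratio used throughout is the log2 of (pubertal FPKM + 1) over (prepubertal FPKM + 1), a difference between the libraries that understates the ratio of low genes. By this measure 158 of 282 Zfp genes (56.0%) were higher at puberty, 116 (41.1%) were lower and 8 were equal, where 38.9% of all genes were higher and 40.4% lower. Many of all genes are listed at 0, so the fairer setting is the genes with a mean of at least 1 FPKM, where 151 of 254 Zfp genes (59.4%) were higher, against 49.0% of all such genes. The median log2 ratio of the 282 Zfp genes was 0.03 (quartiles -0.08 and 0.16, range -0.75 to 0.81). The size of the shift depends on the scaling. Actb, a common reference gene, went from 763 to 576 FPKM. With the libraries scaled to equal Actb, 259 Zfp genes were higher and 15 lower. That scaling moves the median of all genes by 0.19 and gives the Zfp genes a median of 0.37. The share of all genes higher with it is not given here, so these counts alone do not set the Zfp genes apart.

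Most differences were small on the scale of FPKM + 1. At least 1.2-fold in FPKM + 1, 33 Zfp genes (11.7%) were higher and 19 (6.74%) lower, against 8.63% and 11.3% of all genes. At least 1.5-fold, 2 were higher and 2 lower, against 1.43% and 1.86% of all genes. These counts were 6 and 7 with a pseudocount of 0.1, and 49 and 0 with equal Actb, settings for which the shares of all genes are not given here. At the main setting no Zfp gene differed 2-fold in FPKM + 1. The share of higher Zfp genes was larger above 10 FPKM than below it. Over 30 FPKM 14 of 20 Zfp genes (70.0%) were higher, against 57.9% of all genes. Among genes of 10 to 30 FPKM 52 of 73 Zfp genes (71.2%) were higher, against 48.2% of all genes, and among genes of 3 to 10 FPKM 70 of 132 (53.0%), against 43.2%. From 1 to 3 FPKM 15 of 29 (51.7%) were higher, against 43.2%, and up to 1 FPKM the order turned, with 7 higher and 13 lower (35% higher, against 49.2%).

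The number of fragments behind a value sets its precision. Low FPKM multiplied by transcript length fell on steps of 1 fragment, which put the depth at about 20700000 fragments before puberty and 16200000 at puberty, and a Zfp gene at a median of 300 and 241 fragments. For the 239 Zfp genes with 1 transcript of at least 350 nt and at least 1 fragment, a 95% interval of the FPKM ratio was computed from these numbers. It covers counting error only and not the spread between rats. The interval lay above 1 for 49 Zfp genes (20.5%) and below 1 for 18 (7.53%), against 16.0% and 18.1% of the 15662 genes with an interval. At a mean of at least 1 FPKM the shares were 22.2% and 8.14% of the Zfp genes and 20.4% and 22.5% of all genes. The filter did not match the level, since the median before puberty was then 333 fragments for a Zfp gene and 534 for all genes.

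The same counts were made for genes with other zinc finger symbols. These sets were taken by name, and which Zfp proteins carry a BTB or SCAN domain was not looked at. Zbtb proteins join zinc fingers to a BTB domain. Of 39 genes with such a symbol 14 were higher and 25 lower, with a median log2 ratio of -0.06. Without Zbtb8os, which is named for its neighbour and encodes no such protein, 14 were higher and 24 lower (median -0.05). The interval lay above 1 for 0 of 36, against 16.0% of all genes, and below 1 for 6 (16.7%), against 18.1%. Of 14 Zscan and Zkscan genes, whose proteins carry a SCAN domain, 7 were higher and 7 lower, with a median of 0.01. The difference between these sets of symbols was not tested, and the proteins of the sets may overlap by domain.

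The Zfp genes higher at puberty were more often those with genes named as zinc finger genes beside them. Gene order was read from RefSeq as 5 protein-coding genes on each side. A neighbour counted if its symbol was Zfp, Znf, Zscan or Zkscan followed by a digit, so zinc finger genes under other names were missed. With at least 2 neighbours named as zinc finger genes, 64 of 99 Zfp genes were higher and 34 lower, with a median log2 ratio of 0.08. With no such neighbour, 43 of 108 were higher and 62 lower, with a median of -0.04, which was 0.00 once the ratios were centred on all genes of like length. The 39 Zfp genes with 1 such neighbour had 27 higher and 10 lower (median 0.05), and the 36 whose position could not be matched had 24 higher and 10 lower (median 0.09). The counting interval lay above 1 for 23 (25.8%) and below 1 for 1 (1.12%) of 89 grouped Zfp genes. Of 91 that lay alone it was above 1 for 13 (14.3%) and below 1 for 14 (15.4%), where all genes had 16.0% and 18.1%, and all genes with a mean of at least 1 FPKM 20.4% and 22.5%. The difference between grouped and lone genes was not tested. The single grouped gene with an interval below 1 was Zfp707, from 7.28 to 5.79 FPKM. At 1.2-fold, 17 grouped Zfp genes (17.2%) were higher and 4 (4.04%) lower, and 5 of those alone (4.63%) were higher and 14 (13%) lower, against 8.63% and 11.3% of all genes and 11.3% and 15.3% of those with a mean of at least 1 FPKM.

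Levels of the grouped and the lone genes were alike, with medians of 7.12 and 6.92 FPKM before puberty, while their median lengths were 2178 and 2448 nt. Since long transcripts of all genes were lower at puberty, the groups were compared within length classes. Genes with a mean of at least 1 FPKM were used for this. Up to 1500 nt, the median log2 ratio was 0.24 for 15 grouped and -0.09 for 10 lone Zfp genes (all genes, 0.07). Over 1500 and up to 2500 nt it was 0.06 for 45 and -0.03 for 35 (all genes, 0.02), and over 2500 nt it was 0.07 for 34 and -0.05 for 51 (all genes, -0.08). Grouped genes were thus above lone genes in each of the 3 length classes. The difference of the medians, 0.12, was 0.11 with equal Actb, where the lone genes too were higher at puberty (median 0.32). Neighbours in a cluster can share sequence, so that fragments may be assigned to the wrong copy, and they are not independent of each other.

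**Figure D3:**
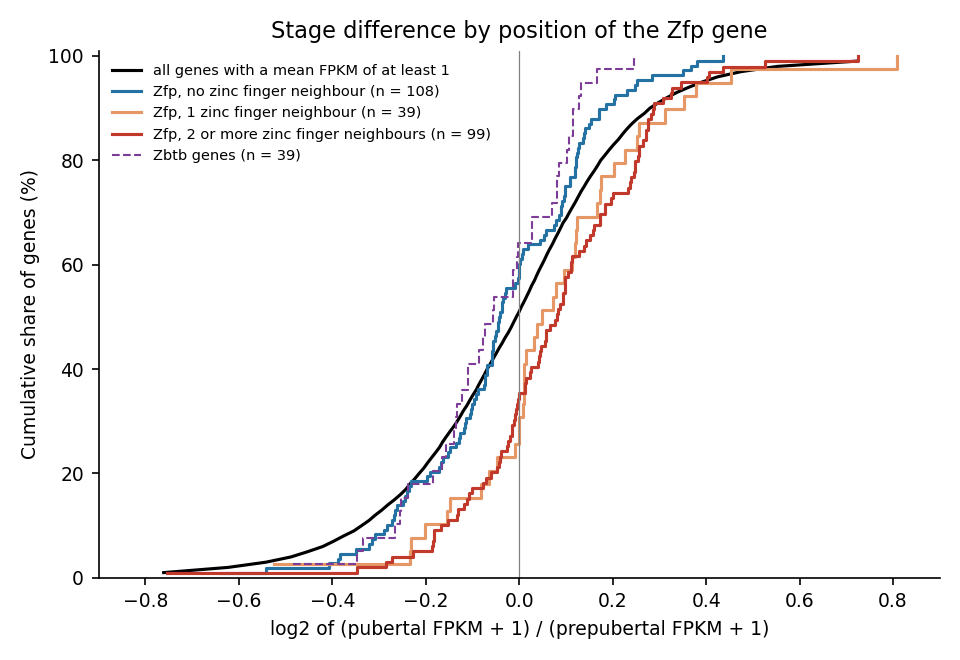
Lines give the cumulative percentage of genes (y axis) up to each log2 ratio of pubertal over prepubertal FPKM + 1 (x axis). They are drawn for Zfp genes by number of neighbours named as zinc finger genes, for Zbtb genes and for all genes with a mean of at least 1 FPKM. Around the median the lines of Zfp genes with 1 or more zinc finger neighbours lie to the right of that of the Zfp genes alone, whose median is -0.04, while at the low end the grouped line starts further left, at -0.75 (Zfp580).

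Rows of zinc finger genes with at most 2 other protein-coding genes between one and the next held 5 or more placed Zfp genes in 5 cases. Zfp genes that share a symbol were not placed, so a row may hold more. In a row on chromosome 1, Zfp84, Zfp790, Zfp14, Zfp566, Zfp382 and Zfp146 were all 6 higher at puberty, with a median log2 ratio of 0.18, where 49.0% of all genes with a mean of at least 1 FPKM were higher. The interval lay above 1 for 2 of the 6 and included 1 for the rest. Zfp146, the most abundant of them, went from 30.8 to 38.8 FPKM, a ratio of 1.26 (interval 1.10 to 1.46), and Zfp790 from 5.57 to 6.85 FPKM, a ratio of 1.23 (1.02 to 1.48). Another row on chromosome 1, Zfp78, Zfp583, Zfp667, Zfp444 and Zfp787, had all 5 higher (median 0.15), with Zfp444 at 20.2 and 22.6 FPKM (interval 0.99 to 1.27). In that row 1 interval, of Zfp787, lay above 1. A row on chromosome 7, Zfp799, Zfp870, Zfp472, Zfp952, Zfp763 and Zfp563, had 5 higher and 1 lower (median 0.12), with Zfp870 at 11.5 and 13.9 FPKM. The row of Zfp180, Zfp112, Zfp235, Zfp111, Zfp61 and Zfp94 had 4 higher and 2 lower (median 0.05). The row with the most placed Zfp genes, 9 among 10 genes with a zinc finger symbol, had more of them lower than higher. Of Zfp786, Zfp398, Zfp282, Zfp212, Zfp956, Zfp777, Zfp746, Zfp467 and Zfp862 on chromosome 4, 3 were higher and 6 lower (median -0.07), and the 1 gene with an interval off 1, Zfp786, was higher, from 2.86 to 3.71 FPKM.

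Single genes with the largest difference were mostly of low level. Zfp646 had 1.15 FPKM before puberty and 2.76 FPKM at puberty (log2 ratio 0.81) on 10 and 19 fragments, and the interval of its FPKM ratio was 1.08 to 5.85. Zfp54, a KRAB zinc finger gene, went from 2.04 to 4.04 FPKM on 77 and 119 fragments, a log2 ratio of 0.73 and an interval of 1.47 to 2.67. These were the 2 genes past 1.5-fold upward in FPKM + 1. Zfp583 had 2.69 and 4.32 FPKM (0.53), where its transcript of 2349 nt had 2.69 and 3.06 FPKM and that of 834 nt rested near 0 before puberty and had 1.25 FPKM at puberty, so the sum turned on the short transcript. After it came 1 of 2 genes called Zfp7, with 3.55 and 5.55 FPKM (0.53) on 13 and 16 fragments and an interval of 0.71 to 3.56 that includes 1, and 1 of 2 called Zfp383, with 8.30 and 12.1 FPKM (0.49). Its transcript of 1467 nt had 5.37 and 5.86 FPKM and that of 912 nt 2.94 and 6.20 FPKM. Both Zfp7 and Zfp383 share their symbol with another gene, and fragments may be split between such copies. Lower in the order Zfp239 had 12.8 and 17.9 FPKM (log2 ratio 0.45, interval 1.06 to 1.90), Zfp3 6.12 and 8.64 FPKM (0.44, 1.20 to 1.67) and Zfp53 5.29 and 7.50 FPKM (0.44, 1.16 to 1.75). In all, 25 Zfp genes shared 12 symbols, of which 18 were higher and 6 lower. The 257 with a symbol of their own had 140 higher and 110 lower.

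On the lower side Zfp580 had the largest difference, from 4.95 to 2.53 FPKM (log2 ratio -0.75), yet on 27 and 11 fragments, and its interval of 0.23 to 1.09 includes 1. Zfp36l1 went from 4.04 to 2.24 FPKM (-0.64, interval 0.34 to 0.89). Zfp46 had 5.25 FPKM before puberty and 3.30 FPKM at puberty on 461 and 226 fragments (-0.54, interval 0.53 to 0.74), which made it the most precisely measured of the 3. Zfp362 had 1.41 and 0.678 FPKM (-0.53), Zfp512b 7.32 and 5.27 FPKM (-0.41), Zfp346 6.31 and 4.59 FPKM (-0.39) and Zfp804a 12.4 and 9.26 FPKM (-0.38), each with an interval below 1. Zfp238, a repressor known from the developing cortex, closed the list with 39.2 and 30.6 FPKM (-0.35, interval 0.71 to 0.86), and with equal Actb its log2 ratio was 0.04. That scaling also brought Zfp512b (-0.06), Zfp346 (-0.05) and Zfp804a (-0.01) close to equality, while Zfp46 was at -0.22, Zfp36l1 and Zfp362 at -0.35 and Zfp580 at -0.45. Of these 8 genes, 6 had no neighbour named as a zinc finger gene, Zfp362 had 1 and Zfp580 lay in a group.

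**Figure D4:**
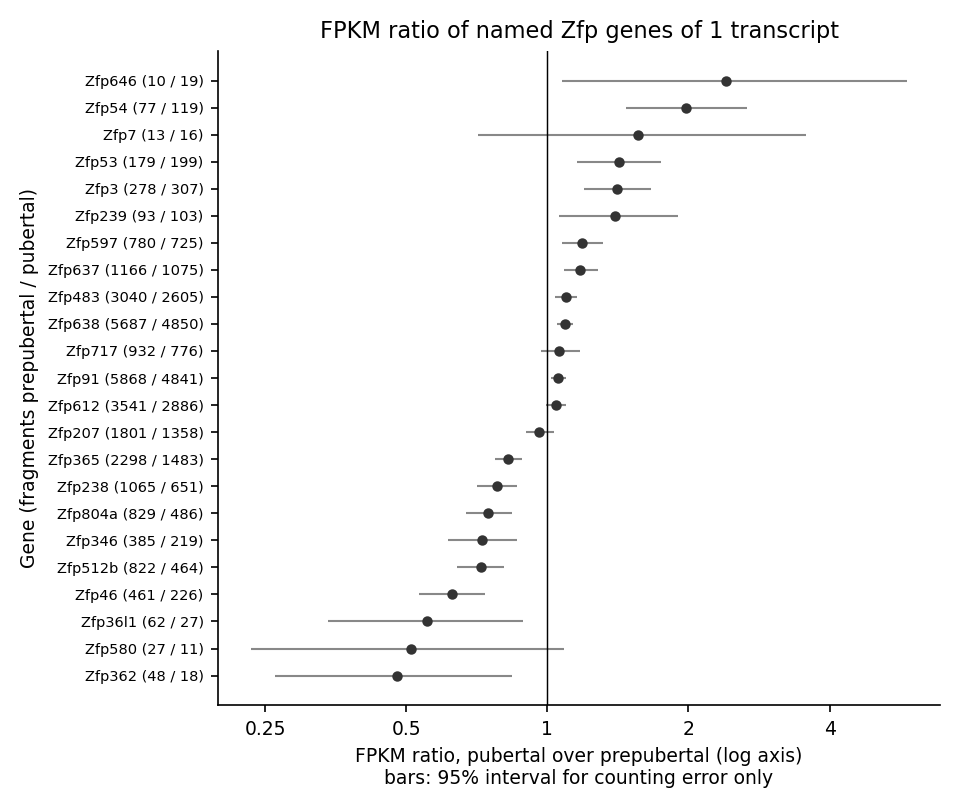
Points give the FPKM ratio of pubertal over prepubertal (x axis, log scale) for the named Zfp genes with 1 transcript, with the fragments of both libraries beside each name, and bars the 95% interval for counting error only. Intervals are wide for genes of few fragments such as Zfp646, Zfp7 and Zfp580, and narrow for Zfp46, Zfp804a, Zfp238 and Zfp365.

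By role, the Zfp genes known from neural and glial development were split, 8 of 18 higher and 10 lower, with a median log2 ratio of -0.03. The interval lay above 1 for 2 (13.3%) and below 1 for 4 (26.7%) of 15, against 16.0% and 18.1% of all genes. The list had a median of 768 fragments before puberty, against 132 for all genes, so its intervals leave 1 more easily. Zfp365, which takes part in neurite outgrowth, had 44.2 and 36.4 FPKM, a ratio of 0.82 (interval 0.77 to 0.88), and was higher with equal Actb. Zfp423, a regulator of neural progenitors, had 15.8 and 13.6 FPKM (0.79 to 0.95), and Zfp804a and Zfp238 are given above. On the other side Zfp191, which oligodendrocytes need to form myelin, had 30.6 and 35.2 FPKM, a ratio of 1.15 (1.04 to 1.29), and Zfp292 had 16.6 and 17.7 FPKM (1.02 to 1.12). Zfp488, a gene of the oligodendrocyte lineage, had 6.97 and 7.01 FPKM.

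The interval included 1 for a further 8 genes of that list. Zfp148 had 31.2 and 31.3 FPKM and Zfp281 16.4 FPKM in both libraries. Zfp521, which keeps progenitor cells from maturing, had 9.99 and 9.56 FPKM, and Zfp516 had 3.93 and 4.08 FPKM. Zfp703 had 1.58 and 1.29 FPKM, Zfp704 4.20 and 3.25 FPKM, Zfp503 1.98 and 1.75 FPKM and Zfp804b 2.50 and 2.81 FPKM. For the 3 genes with more than 1 transcript no interval was given, and Zfp335 had 7.64 and 8.32 FPKM, Zfp462 5.53 and 4.54 FPKM and Zfp536 8.10 and 9.25 FPKM. The difference of Zfp462 lay in its minor transcript, at 0.905 and 0 FPKM, since the main one had 4.62 and 4.54 FPKM. With equal Actb 9 of the 10 lower genes of the list were higher, and Zfp804a was close to equality (log2 ratio -0.01).

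The Zfp genes that act on RNA or proteins had 6 of 18 higher, 11 lower and 1 listed at 0, with a median log2 ratio of -0.05. Of all genes with a mean of at least 1 FPKM, 49.0% were higher and 51.0% lower. The interval lay above 1 for 2 (14.3%) and below 1 for 3 (21.4%) of 14, near the 16.0% and 18.1% of all genes. The list had a median of 706 fragments before puberty, against 132 for all genes. The genes with an interval below 1 were Zfp346, which binds double-stranded RNA, Zfp385a with 7.06 and 5.48 FPKM (0.65 to 0.93), and Zfp598, the ubiquitin ligase that senses collided ribosomes, with 6.01 and 4.98 FPKM (0.70 to 0.98). The genes with an interval above 1 were Zfp91 (1.02 to 1.10) and Zfp638 (1.05 to 1.13). The other genes of the list differed less or were measured less precisely. Zfp330 had 39.9 and 38.7 FPKM, Zfp622, a factor in ribosome assembly, 24.7 and 23.7 FPKM, and Zfp259 15.2 and 16.4 FPKM. Zfp451, a SUMO ligase, had 10.6 and 11.2 FPKM, Zfp318 9.57 and 8.91 FPKM, Zfp593 8.62 and 9.26 FPKM and Zfp830 7.20 and 6.49 FPKM. Within the Zfp385 family the direction was mixed. Zfp385b had 4.09 and 3.63 FPKM, Zfp385c 0.319 and 0.178 FPKM and Zfp385d 4.89 and 5.50 FPKM. With equal Actb 9 of the 11 lower genes of the list were higher, the exceptions being Zfp346, then close to equality (-0.05), and Zfp385c.

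Of the family that binds AU-rich elements and speeds mRNA decay, Zfp36 had 0.712 and 0.830 FPKM (0.61 to 2.21), Zfp36l1 was the lower gene named above and Zfp36l3 was listed at 0. The median of these 3 genes was 0, and it was -0.27 over the 2 above 0 in both libraries. Of the KRAB zinc finger genes that guard imprinted loci and transposons, Zfp57 had 24.2 and 20.3 FPKM, a log2 ratio of -0.24 (0.75 to 0.94), which was 0.14 with equal Actb. Zfp445, which shares that role at imprinted loci, had 29.3 and 29.6 FPKM (0.96 to 1.06), and Zfp92 had 8.56 and 9.43 FPKM (0.88 to 1.41). Some listed genes were not analysed here, since no row carried their symbol, namely Zfp36l2 of the decay family, Zfp568, Zfp708, Zfp809 and Zfp932 of the silencing list and Zfp265 and Zfp326 of the RNA list.

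The partners through which KRAB zinc finger proteins silence genes were more often lower than higher at the main setting, but not with equal Actb. Of 15 co-repressor genes (Setdb1 and Atrx were not analysed here), 5 were higher and 10 lower (median log2 ratio -0.10). With equal Actb 14 were higher and 1 lower. The interval lay above 1 for 2 and below 1 for 6 of 11, where the shares of all genes were 16.0% and 18.1%. The list had a median of 1692 fragments before puberty, against 132 for all genes, so its intervals are narrower and leave 1 more easily. With 1 transcript per gene the median log2 ratio was -0.04. Trim28, the scaffold that binds the KRAB domain, had 55.3 and 53.9 FPKM, a ratio of 0.97 (0.92 to 1.03). Dnmt3a, a DNA methyltransferase, had 20.9 and 10.5 FPKM, a ratio of 0.50 (0.46 to 0.55), the largest difference in the list. Chd4 and Chd3, remodellers of the NuRD complex, had 46.7 and 37.1 FPKM and 53.6 and 45.4 FPKM. Hdac1 and Hdac2, the deacetylases of that complex, had 21.5 and 18.7 FPKM and 53.0 and 49.4 FPKM. Among the heterochromatin proteins Cbx1 had 51.0 and 43.2 FPKM and Cbx3 164 and 156 FPKM, while Cbx5 had 120 and 127 FPKM. Atf7ip had 11.8 and 10.1 FPKM, Smarcad1 16.8 FPKM in both libraries, and Dnmt1 and Uhrf1, which keep DNA methylation through cell division, 7.79 and 7.09 FPKM and 1.36 and 1.60 FPKM. Among the genes on the higher side Daxx, a histone chaperone, had 8.31 and 9.84 FPKM (1.02 to 1.38) and Morc3 21.7 and 28.4 FPKM. A list of 9 other genes held repressors named in work on puberty and general zinc finger or chromatin factors, and 2 were higher and 7 lower (median -0.07). The interval lay below 1 for 3 of the 7 genes that had one, against 18.1% of all genes. These 9 genes had a median of 344 fragments before puberty, against 132 for all genes. Of all genes with a mean of at least 1 FPKM, 51.0% were lower. The 3 genes with an interval below 1 were Mkrn3, Zfpm2 and Kdm1a. Mkrn3, mutated in human precocious puberty, had 3.04 and 2.03 FPKM (0.45 to 0.98). Zfpm2 had 2.12 and 1.39 FPKM and Kdm1a, a histone demethylase, 41.5 and 37.8 FPKM. Rest, a repressor of neuronal genes, had 7.82 and 5.54 FPKM, with no interval. Near equality or above it were Ctcf (14.4 and 13.6 FPKM), Irf2bpl (7.96 and 7.62 FPKM), Zfpm1 (0.781 and 0.777 FPKM), Yy1 (18.7 and 19.2 FPKM) and Gatad1 (39.2 and 41.9 FPKM). With equal Actb the median of the co-repressor list was 0.30, and in the list of 9 genes 6 were then higher and 3 lower (median 0.26).

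**Figure D5:**
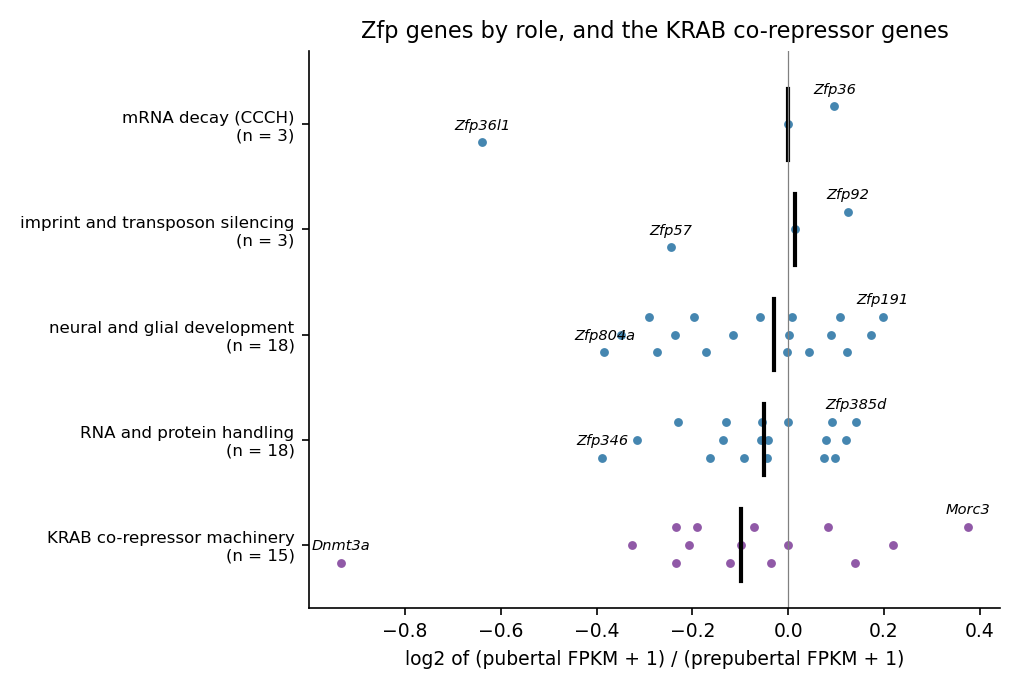
Each point is 1 gene, placed by its log2 ratio of pubertal over prepubertal FPKM + 1 (x axis) and by list, with Zfp genes in blue, genes of the KRAB co-repressor machinery in purple and the median of each list as a black bar. The 4 lists of Zfp genes had medians between -0.05 and 0.01, where that of the 3 mRNA decay genes is set by Zfp36l3, listed at 0, and the co-repressor genes spread from Dnmt3a on the left to Morc3 on the right with a median of -0.10.

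The peptides that define the hypothalamus were present, and the libraries also differed in markers of other cell types. All 7 hypothalamic peptide genes were above 0, summing to 2651 and 4042 FPKM, and 6 of 7 were higher at puberty (median log2 ratio 0.34). Markers of thalamus and cortex summed to 139 and 104 FPKM, with 5 of 6 lower. All 5 neuronal markers were lower, 1678 and 1514 FPKM in sum, and all 5 markers of microglia (191 and 234 FPKM) and of red blood cells (6837 and 13083 FPKM) were higher. Of the immediate early genes, which follow neuronal activity, 7 of 8 were lower (median -0.30). Of all genes with a mean of at least 1 FPKM, 49.0% were higher and 51.0% lower. With equal Actb the immediate early genes had 4 higher and 4 lower, and the neuronal markers 3 higher and 2 lower. The markers of thalamus and cortex then had 2 higher and 4 lower, and all peptide, microglia and red blood cell genes were higher. Other lists were mixed, with 3 of 5 higher for oligodendrocytes, astrocytes and choroid plexus and 2 of 4 for endothelium and immature neurons. Pituitary hormones summed to 6.99 and 14.5 FPKM, with Prl and Fshb at 0 before puberty. In bulk tissue fewer cells of a type and less RNA per cell cannot be told apart, and the part of these differences in the Zfp values was not tested.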

How the data were processed

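The authors removed ribosomal RNA, sequenced paired ends, aligned reads with TopHat and assembled transcripts with Scripture and Cufflinks, and the deposited values are FPKM that the authors estimated per transcript. The submitters' processing notes name Cufflinks 2.1.1, Cuffdiff 2.1.1 and the rat build Rnor_5.0, and the RefSeq tables used here are of GRCr8, so no coordinate was carried between builds. The deposited comparison table holds FPKM, lengths and the authors' fold changes, p-values and q-values. The last 3 were not used. FPKM of the mRNA table was summed per gene identifier, and a pseudocount of 1 was added for log2 ratios. The transcript length column of the comparison table was deposited by the authors, and 13 pubertal FPKM, 1 of a Zfp gene, differed between both tables. All columns used were matched to a stage by name, and 0 columns were left unmapped.

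With 1 library per stage no test was made. Fragments were derived from the step of low FPKM times length after an edge of 255 and 250 nt was taken off, and were whole within 0.1 for 98.4% and 98.2% of the low values of transcripts over 1500 nt, on which the step was fitted, and for 95.0% and 94.8% from 550 to 1500 nt and 89.8% and 93.4% from 350 nt to under 550 nt. Fragments were not used below 350 nt, nor intervals for genes with more than 1 transcript, whose FPKM do not add as fragments. Intervals are exact binomial intervals (95%) of the split of a gene's fragments between the libraries.

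The Zfp genes and all lists were chosen with earlier results of these data known. Named are the 10 with the highest mean, the 8 largest differences in each direction among those with at least 1 FPKM, and every gene of the 4 role lists and of the co-repressor list that matched by symbol (Zfp24 of the neural list is a second name of Zfp191 and counts once). The 1.2-fold limit, the intervals, the neighbour classes (2, 3 and 5 genes on each side were looked at), the rows, the motif set (several forms of the Zfp143 site were looked at), and genes named for their promoter or row were chosen after values were seen. Genes were matched to RefSeq by unique symbol or synonym. Protein sequences, the lncRNA tables and the goat samples were not used here. Alternatives were a pseudocount of 0.1, filters on low FPKM, 1 transcript per gene (that of highest FPKM), scaling to equal Actb or equal medians, centring in 10 length classes, and the FPKM of the comparison table. Scripts ran in Python 3.11.15 with scipy 1.17.1, pandas 2.3.3, numpy 2.4.6 and, for figures, matplotlib 3.10.9.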

Additional observations from a re-analysis of the deposited data

How the results depend on the processing

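Scaling by Actb, which multiplied pubertal values by 1.32, altered the results most and moved the median log2 ratio of all genes by 0.1923. With it 259 Zfp genes were higher and 15 lower, 49 at least 1.5-fold higher and 0 lower, and the median log2 ratio was 0.3747, which is 0.1824 above that of all genes. The grouped Zfp genes then had a median of 0.4285 and those alone 0.3176. The medians were 0.4083 for imprint and transposon silencing, 0.3406 for neural and glial development, 0.3383 for RNA and protein handling and 0.2988 for the co-repressors, and 19 of 61 named Zfp genes had the other sign, among them Zfp238, Zfp365 and Zfp57. The median of the mRNA decay genes, 0 with all 3, was -0.6385 with either filter at 1 FPKM, which left Zfp36l1 alone, and -0.2712 over those above 0 in both libraries, and that of the co-repressors was -0.03669 with 1 transcript per gene. With a pseudocount of 0.1, 6 Zfp genes were at least 1.5-fold higher and 7 lower. Shares of all genes with equal Actb or with this pseudocount are not given here. With centring in 10 length classes the median of the Zfp genes alone was 0.0001129 and 4 of 61 named genes had the other sign. Scaling to equal medians turned the sign of Zfp281 alone among the 61. The difference of grouped and lone medians lay between 0.09716 and 0.1293 over all alternatives, with 0.1121 when 1 zinc finger gene among 3 neighbours on each side was set against none. The filters on a mean of at least 1 FPKM, the genes with a symbol of their own and the neighbour classes were chosen after seeing the data. No paired analysis was possible because each stage is 1 library. Finger counts per protein were not run, since no protein sequences were used, and no replicate could be left out. Depth limits the low genes most: at 10 and 19 fragments the interval of a ratio runs over more than 5-fold.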
